A study of Mus musculus with 4 samples.

Results

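The 36 genes described here encode the chains of 2 protein families: integrins, the receptors that tie a cell to the matrix around it, and laminins, the matrix proteins that build the basement membrane. They were taken by name from the deposited expression values, as every integrin alpha gene, the integrin beta genes 1 to 8 and the laminin alpha, beta and gamma genes with a value above 0 in at least 1 library. Of 32868 gene names, 37 matched, and Lama1 was left out because it is listed at 0 in all 4 libraries. This left 18 integrin alpha, 8 integrin beta, 4 laminin alpha, 3 laminin beta and 3 laminin gamma genes.

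The tissue was whole tibialis anterior, the fast-twitch muscle that lifts the foot, from C57BL/6 mice at postnatal day 21. The 2 Het libraries carried 1 floxed Nf1 allele (Nf1flox/+/Myf5+), and the 2 Nf1-KO libraries carried 2 (Nf1flox/flox/Myf5+). All 4 therefore share the Myf5+ allele and at least 1 floxed allele, and there is no group without them. The labels do not spell out Myf5+. In a floxed cross it commonly stands for a Cre recombinase driven by Myf5, a gene of muscle precursors, so blood vessel, nerve and immune cells in the muscle would keep Nf1. The labels do not say whether muscles were pooled, so p-values measure the spread between these libraries only.

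Nf1 encodes neurofibromin, which switches off the GTPase Ras. It was 1.09 and 1.01 RPKM (reads divided by gene length and by sequencing depth) in Het and 0.89 and 0.85 RPKM in Nf1-KO, so the groups did not overlap. Its log2 fold change was -0.18 (SE 0.057, limma adjusted p 0.0408) on log2(RPKM + 1), which understates the change of low genes. The authors' deposited table gave -0.38 (SE 0.11) for Nf1. The genes that define muscle fibres were abundant in every library: 8 such markers summed to 47163 and 47354 RPKM in Het and to 42353 and 41945 RPKM in Nf1-KO. From the steps of low values, depth came to about 36500000 and 58100000 reads for the Het pair, and about 47000000 and 51000000 for the Nf1-KO pair. At those depths 0.1 RPKM in a transcript of 5 kb stands for 18.2 to 29.0 reads. The integrin and laminin genes had from 10.2 to 8496 mean normalized reads in the authors' deposited table, so the lowest members rest on few reads.

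An integrin is a pair of chains, 1 alpha and 1 beta, that spans the membrane. The alpha chain largely sets which matrix protein is bound, and the beta tail connects through talin and kindlin to the actin skeleton. A laminin is a cross-shaped trimer of 1 alpha, 1 beta and 1 gamma chain that polymerises on the cell surface. In skeletal muscle, laminin 211 (Lama2, Lamb1 and Lamc1) surrounds the fibre, and the integrin of Itga7 and Itgb1 is its receptor beside dystroglycan. Loss of LAMA2 or ITGA7 causes muscular dystrophy in people. Laminins with Lama4 or Lama5 are typical of blood vessel walls, and Lamb2 replaces Lamb1 at the neuromuscular junction and in vessels.

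The families split by gene rather than moving together. Itga7, Itgb2, Itgb3 and Lamb3 rose in Nf1-KO. Itga1, Itga3, Itga4, Itga6, Itgav, Itgb1, Lama5, Lamb2 and Lamc1 fell. The test was limma on log2(RPKM + 1), which understates the change of low genes, with values scaled between libraries and p-values adjusted over 10690 genes. Of the 36 genes, 22 had at least 0.5 RPKM in at least 2 libraries and were tested, of which 4 were higher and 9 lower at an adjusted p under 0.05. Over all genes tested, 24.9% were higher and 25.4% lower. Of the 22, Itga11, Itgb2, Itgb3 and Lamb3 reached the filter through Nf1-KO alone and Itga4 through Het alone, so these 5 were bound to differ between the groups. The median log2 fold change was 0.04 over the 15 tested integrin genes and -0.09 over the 7 tested laminin genes, against 0.00041 over all genes tested. The integrin median turned to -0.10 without Nf1-KO replicate 1, to -0.12 without Nf1-KO replicate 2 and to -0.18 with at least 1 RPKM in every library; among other genes, each of these leaves out Itgb2 and Itgb3. The laminin median was -0.19 without Nf1-KO replicate 1, -0.047 without a filter, -0.15 with at least 1 RPKM in every library and -0.022 with values as deposited.

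Scaling mattered for small differences. The 2 Nf1-KO libraries were scaled down relative to Het by 0.09 on the log2 scale. With values as deposited, the median log2 fold change of all tested genes was 0.07, 8 members were higher and 8 lower, and 66.6% of all called genes were higher against 49.5% with scaling. Leaving out either Nf1-KO library left 1 higher member (Itga7), because Itgb2, Itgb3 and Lamb3 then no longer reached 0.5 RPKM in 2 libraries. By the deposited RPKM, both Nf1-KO libraries lay above both Het libraries in 17 of the 36 members and below them in 10. Among all 18959 genes with a value above 0 these shares were 37.5% and 20.4%.

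**Figure D1:**
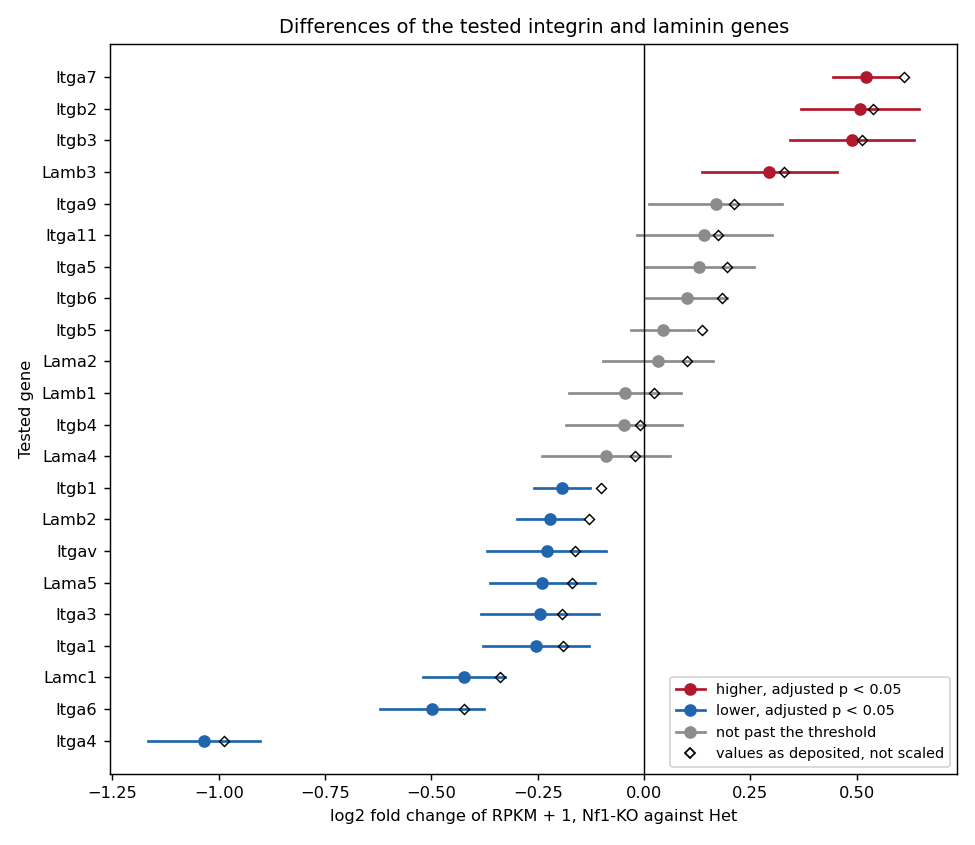
Log2 fold change of RPKM + 1 in Nf1-KO against Het for the 22 tested genes, with 95% intervals from limma (not adjusted for the number of genes). Filled points are scaled values, in red where higher, blue where lower and grey where the adjusted p did not pass 0.05, and open diamonds are values as deposited; Itga7 is at 0.52 and Itga4 at -1.03.

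The authors' deposited table, which lists all 36 members, called 7 higher and 10 lower. Of its 13985 genes, 15.0% were higher and 16.6% lower. The 13 members called here were among the 17 called in the authors' deposited table, each with the same sign. The other 4 (Itgam, Itgax and Lama3 higher, Itgal lower) were below the filter used here. Without a filter, limma called Itgam (adjusted p 0.0219) and Itgal (0.0120), with the same signs. It did not call Itgax (adjusted p 0.0605) or Lama3 (0.0972).

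Levels were uneven. Of the 36 members, 4 averaged at least 10 RPKM: Itgb1, Itgb5, Lamb2 and Itga7. Another 12 averaged between 1 and 10 RPKM, and 16 were below 0.5 RPKM. Among the 16 members of at least 1 RPKM, the coefficient of variation between replicates ran from 0.824% to 5.58% in Het and from 0.223% to 8.35% in Nf1-KO. RPKM is divided by gene length, so these levels can be set side by side, as far as the authors' gene lengths hold.

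**Figure D2:**
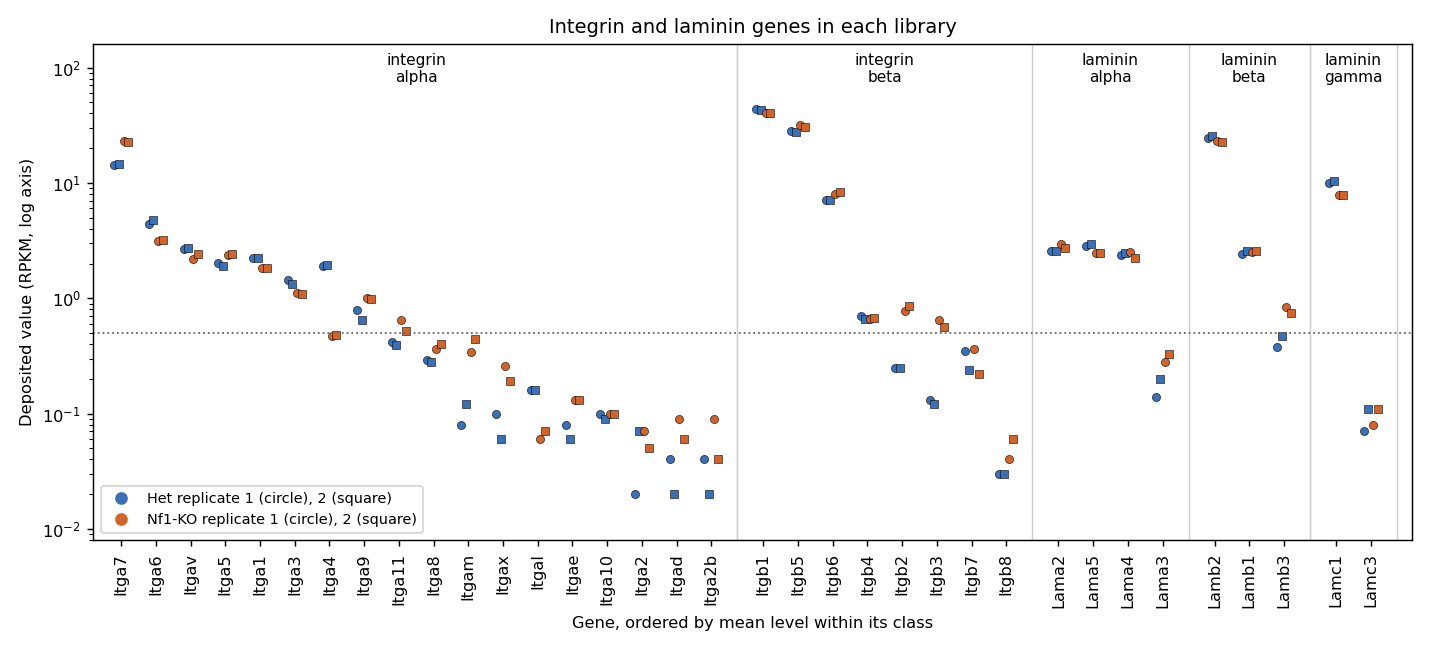
Deposited RPKM (log axis) of 35 integrin and laminin genes in the 2 Het (blue) and 2 Nf1-KO (orange) libraries, ordered by mean level within each chain class; the dotted line marks 0.5 RPKM, the filter of the test. Itgb1 is highest at 40.0 to 44.0 RPKM, Itga4 separates the groups most among genes above 1 RPKM, and points below 0.1 RPKM rest on few reads.

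Among the laminin-binding integrin alpha chains, Itga7 rose while Itga6 and Itga3 fell. Itga7 (ENSMUSG00000025348.9, chromosome 10, 128933818 to 128958282, GRCm38) is the main alpha chain of adult fibres. It was 14.39 and 14.70 RPKM in Het and 22.98 and 22.50 RPKM in Nf1-KO. Both Nf1-KO libraries were well above both Het libraries, at 1.56 times the Het mean as deposited. The log2 fold change was 0.52 (SE 0.032, limma adjusted p 4.31e-05), and 0.54 in the authors' deposited table. Over all alternatives its log2 fold change stayed between 0.50 and 0.61.

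Itga6 (ENSMUSG00000027111.15, chromosome 2, 71745616 to 71858416) is the laminin receptor chain of endothelium, epithelium and satellite cells. It was 4.44 and 4.74 RPKM in Het and 3.16 and 3.17 RPKM in Nf1-KO, with no overlap. This was a log2 fold change of -0.50 (SE 0.050, limma adjusted p 3.82e-04). Itga3, which also pairs with Itgb1 and prefers laminins with Lama5 or Lama3, was 1.45 and 1.34 RPKM in Het and 1.11 and 1.08 RPKM in Nf1-KO. The log2 difference was -0.24 (SE 0.057, limma adjusted p 0.0129), and the call was lost without Het replicate 1 (adjusted p 0.0551) or without Nf1-KO replicate 2 (0.0682). With a pseudocount of 0.1 it was -0.41.

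The balance between these chains needs no scaling, because a ratio within a library does not depend on it. Itga7 stood at 3.24 and 3.10 times Itga6 in Het and at 7.27 and 7.10 times Itga6 in Nf1-KO. Itga7 was 9.92 and 10.97 times Itga3 in Het and 20.7 and 20.8 times in Nf1-KO. In this design the smallest two-sided p that an exact permutation test of a ratio can reach is 0.33, so none is given. Of the summed RPKM of the 18 alpha chains, Itga7 made up 46.1% and 46.6% in Het and 61.7% and 61.0% in Nf1-KO. Itga6 made up 14.2% and 15.0% in Het and 8.48% and 8.59% in Nf1-KO.

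Itgb1 (ENSMUSG00000025809.15, chromosome 8, 128685654 to 128733200), the beta chain shared by most matrix-binding integrins, fell slightly. It was the most abundant member, with 44.00 and 42.64 RPKM in Het and 39.98 and 40.66 RPKM in Nf1-KO. The groups did not overlap, but the Nf1-KO mean was 0.931 times the Het mean. On the log2 scale it fell by 0.19 (SE 0.027, limma adjusted p 0.00159), and -0.10 (adjusted p 0.0230) with values as deposited. Set against its partner, Itga7 was 0.327 and 0.345 times Itgb1 in Het and 0.575 and 0.553 times in Nf1-KO. Itgb4, the partner of Itga6 in hemidesmosomes, was 0.70, 0.66, 0.66 and 0.68 RPKM in the order Het 1, Het 2, Nf1-KO 1 and Nf1-KO 2. Its groups overlapped, and its log2 fold change of -0.05 had a 95% interval from -0.18 to 0.089.

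**Figure D3:**
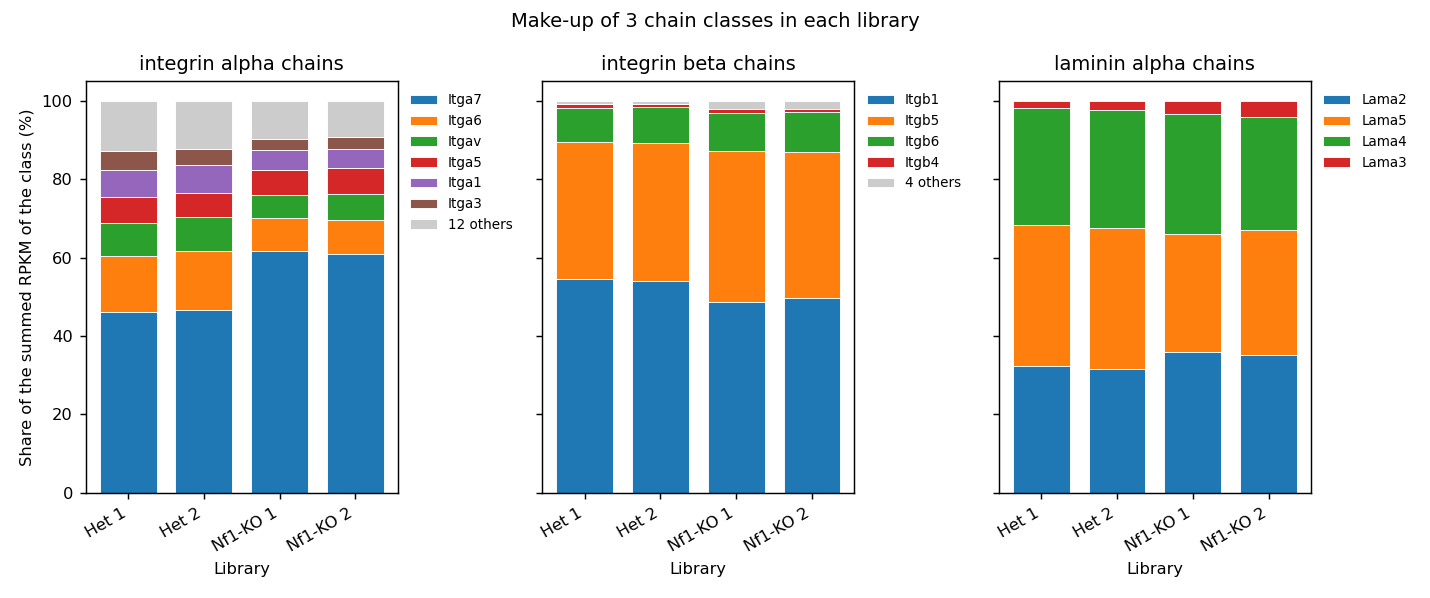
Share of the summed RPKM of the integrin alpha, integrin beta and laminin alpha chains that each gene holds in each library, as stacked bars from 0 to 100%. The Itga7 share is 46.1% and 46.6% in Het against 61.7% and 61.0% in Nf1-KO, and Lama2 passes Lama5 in the Nf1-KO libraries.

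Of the collagen-binding alpha chains, all partners of Itgb1, Itga1 fell and Itga11 did not pass the test. Itga2 and Itga10 were below the filter and were not tested. Itga1, a receptor for the collagen 4 of basement membranes, was 2.22 and 2.25 RPKM in Het and 1.83 and 1.84 RPKM in Nf1-KO. The replicates of each group were nearly equal and the groups did not overlap. This was a log2 fold change of -0.25 (SE 0.051, limma adjusted p 0.00736). Itga11, the fibroblast receptor for fibrillar collagen, was 0.42 and 0.39 RPKM in Het and 0.65 and 0.52 RPKM in Nf1-KO. Both Nf1-KO libraries were higher, but the log2 fold change of 0.14 did not pass (95% interval -0.016 to 0.30, limma adjusted p 0.118). Itga2, the collagen receptor chain of platelets and epithelium, was between 0.02 and 0.07 RPKM, and the cartilage chain Itga10 between 0.09 and 0.10 RPKM. Neither separated the groups. Exons of Itga1 and Itga10 share 685 and 1739 bases on the same strand with the annotated genes Gm49395 and Gm42957, so their reads may be split.

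Itga4 showed the largest fall of all 22 tested members. Itga4 (ENSMUSG00000027009.18, chromosome 2, 79255426 to 79333123) encodes the alpha chain that binds Vcam1 and fibronectin, used by leukocytes and by developing muscle. It was 1.91 and 1.94 RPKM in Het and 0.47 and 0.48 RPKM in Nf1-KO. The replicates of each group were nearly equal, and Nf1-KO stood at 0.247 times the Het mean. The log2 fold change was -1.03 (SE 0.054, limma adjusted p 2.30e-05). With a pseudocount of 0.1 it was -1.90, and the authors' deposited table gave -2.12 (SE 0.12) from a mean of 648 normalized reads. Exons of Itga4 share 1124 bases with those of Cerkl on the opposite strand, and the strand setting of the counting is not given in the sources used here. Cerkl itself was listed at 0.01 and 0 RPKM in Het and 0.08 and 0.03 RPKM in Nf1-KO.

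The 250 bases before the RefSeq start of Itga4 are shown because this gene had the largest fall among the tested members. They lie on the plus strand at chr2:79255176-79255425 (GRCm38.p6, not the mm9 build that the submitters' processing notes name). Capitals mark a GC box, GGGCGG or its reverse complement, searched on both strands.
Itga4: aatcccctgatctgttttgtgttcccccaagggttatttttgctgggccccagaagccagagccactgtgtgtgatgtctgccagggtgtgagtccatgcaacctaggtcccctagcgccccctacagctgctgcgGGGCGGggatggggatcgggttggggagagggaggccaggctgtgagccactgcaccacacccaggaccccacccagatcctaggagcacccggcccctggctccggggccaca
The GC box begins 114 bases before the start, and 1 E-box (CANNTG), the kind of site that myogenic factors bind, begins 125 bases before it. Neither match overlaps the other. Of 32851 promoter windows of this length, 32.7% hold a GC box and 66.2% an E-box, so both are common.

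The other fibronectin and RGD-binding chains (RGD is the short peptide motif in fibronectin, vitronectin and osteopontin that they recognise) differed in direction. Itga5, the classical fibronectin receptor chain, was 2.03 and 1.92 RPKM in Het and 2.38 and 2.43 RPKM in Nf1-KO. The groups did not overlap. A log2 fold change of 0.13 missed the threshold (95% interval 0.0017 to 0.26, limma adjusted p 0.0849) and passed with values as deposited (0.19, adjusted p 0.0226) or without a variance trend (adjusted p 0.0456). Itgav, the shared partner of several beta chains, was 2.65 and 2.74 RPKM in Het and 2.19 and 2.42 RPKM in Nf1-KO. Both Nf1-KO libraries were lower, with a log2 fold change of -0.23 (SE 0.057, limma adjusted p 0.0170). That call was lost with values as deposited (-0.16, adjusted p 0.0565), without a filter (0.0568), without Het replicate 1 (0.0578), without Het replicate 2 (0.0861) or without Nf1-KO replicate 1 (0.107). Itga5 was 0.766 and 0.701 times Itgav in Het and 1.09 and 1.00 times Itgav in Nf1-KO, where the chains did not differ beyond the spread of Itgav.

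Itgb3 (ENSMUSG00000020689.4, chromosome 11, 104608000 to 104670476) showed the largest ratio among the members that rose. It encodes the beta chain of the vitronectin and osteopontin receptor of osteoclasts, macrophages and endothelium, and of the platelet fibrinogen receptor. It was 0.13 and 0.12 RPKM in Het and 0.65 and 0.56 RPKM in Nf1-KO. Both Nf1-KO libraries stood far above both Het libraries, at 4.84 times the Het mean. On the log2 scale it rose by 0.49 (SE 0.060, limma adjusted p 9.01e-04) with a pseudocount of 1 and by 1.58 with 0.1. The authors' deposited table gave 2.14 (SE 0.31) from a mean of 100 normalized reads. Its partner Itgav was 20.4 and 22.8 times Itgb3 in Het and 3.37 and 4.32 times in Nf1-KO.

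Of the other partners of Itgav, Itgb5 was second only to Itgb1 among the beta chains. It was 28.23 and 27.80 RPKM in Het and 31.45 and 30.30 RPKM in Nf1-KO, with no overlap as deposited. With scaling the log2 fold change was 0.04 (95% interval -0.031 to 0.12, limma adjusted p 0.277), and with values as deposited it was 0.14 (adjusted p 0.0111). Itgb6, whose integrin activates latent TGF-beta, was 7.06 and 7.15 RPKM in Het and 8.06 and 8.35 RPKM in Nf1-KO. It likewise missed the threshold with scaling (0.10, limma adjusted p 0.0774) and passed without (0.18, adjusted p 0.00955). Itgb8, another partner of Itgav that activates latent TGF-beta, was 0.03 RPKM in each Het library and 0.04 and 0.06 RPKM in Nf1-KO. Itga9, a receptor for tenascin C and osteopontin, was 0.79 and 0.65 RPKM in Het and 1.00 and 0.98 RPKM in Nf1-KO. The groups did not overlap, but the log2 fold change of 0.17 missed the threshold (limma adjusted p 0.0705), and it passed with values as deposited (0.21, adjusted p 0.0331), without a variance trend (0.0492) or without Het replicate 1 (0.0473). Itga8, the nephronectin receptor chain, was 0.29 and 0.28 RPKM in Het and 0.36 and 0.40 RPKM in Nf1-KO, below the filter.

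Of the integrins of leukocytes, the shared chain Itgb2 rose, and the authors' deposited table called the myeloid chains Itgam and Itgax higher and Itgal lower. Itgb2 (ENSMUSG00000000290.13, chromosome 10, 77530252 to 77565708), the beta chain that leukocyte integrins share, was 0.25 RPKM in each Het library and 0.78 and 0.85 RPKM in Nf1-KO. The groups were far apart, with Nf1-KO at 3.26 times the Het mean. The log2 fold change was 0.51 (SE 0.057, limma adjusted p 6.11e-04), 1.31 with a pseudocount of 0.1, and 1.6 (SE 0.35) in the authors' deposited table. Its partner Itgam, the macrophage and neutrophil chain known as CD11b, was 0.08 and 0.12 RPKM in Het and 0.34 and 0.44 RPKM in Nf1-KO. Itgam was too low for the filter. The authors' deposited table gave it a log2 fold change of 1.82 (SE 0.37, adjusted p 6.38e-06). Itgax, or CD11c, of macrophages and dendritic cells, was 0.10 and 0.06 RPKM in Het and 0.26 and 0.19 RPKM in Nf1-KO, and 1.52 (SE 0.55, adjusted p 0.0209) in the authors' deposited table.

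Itgal, or CD11a, another leukocyte chain that pairs with Itgb2, went the other way. It was 0.16 RPKM in each Het library and 0.06 and 0.07 RPKM in Nf1-KO, with no overlap. Its log2 fold change in the authors' deposited table was -1.46 (SE 0.54, adjusted p 0.0248), from a mean of 28.8 normalized reads. Itgb2 therefore stood at 1.56 times Itgal in each Het library and at 13.0 and 12.1 times in Nf1-KO, while Itgb2 over Itgam overlapped between the groups (3.12 and 2.08 against 2.29 and 1.93). Itgae, of resident lymphocytes and dendritic cells, was 0.08 and 0.06 RPKM in Het and 0.13 RPKM in each Nf1-KO library. Its lymphocyte partner Itgb7 was between 0.22 and 0.36 RPKM and overlapped. Itgad, a macrophage chain, was 0.04 and 0.02 RPKM in Het and 0.09 and 0.06 RPKM in Nf1-KO, and it shares 70 exonic bases on the opposite strand with Cox6a2, which held 823 to 1320 RPKM. Itga2b, the platelet partner of Itgb3, was 0.04 and 0.02 RPKM in Het and 0.09 and 0.04 RPKM in Nf1-KO, with overlap.

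Most tested markers of immune cells moved with Itgb2, Itgam and Itgax, and opposite to Itgal and Itga4. Of 16 such markers 10 were tested, of which 8 were higher and 0 lower, against 24.9% and 25.4% of all genes tested. The 16 summed to 13.5 and 13.4 RPKM in Het and 38.6 and 37.8 RPKM in Nf1-KO, most of it from Lyz2 (lysozyme of myeloid cells), at 7.47 and 7.38 against 24.35 and 24.62 RPKM. The macrophage markers Cd163 (log2 fold change -0.0019, limma adjusted p 0.982) and Mrc1 (0.0067, adjusted p 0.946) did not pass. Ptprc, the marker of all leukocytes, was 0.16 and 0.17 RPKM in Het and 0.24 and 0.29 RPKM in Nf1-KO. The T cell marker Cd3e was 0.04 and 0.10 RPKM in Het and 0.04 and 0.01 RPKM in Nf1-KO. Adgre1 and Emr1, new and old name of a macrophage marker, are listed at 0 in all 4 libraries. Of 5 platelet markers, Pf4 rose from 1.02 and 1.14 to 2.06 RPKM in each Nf1-KO library (log2 fold change 0.50, limma adjusted p 6.74e-04), while Ppbp was 0.15 and 0.22 RPKM in Het and 0.18 and 0.13 RPKM in Nf1-KO, with overlap, and Gp9, Gp6 and Gp1bb were between 0 and 0.03 RPKM. In whole muscle, more cells of a type and more RNA per cell cannot be told apart, and the part of cell numbers in these values was not tested.

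**Figure D4:**
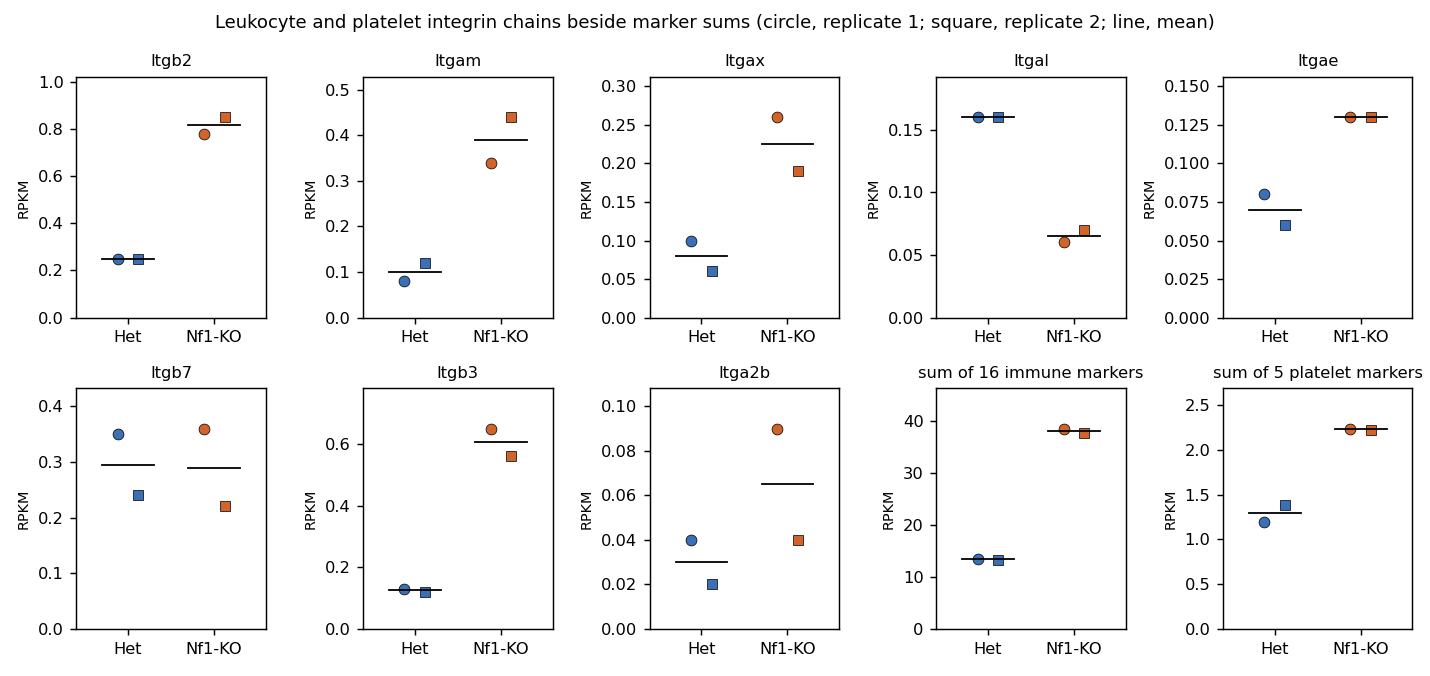
Deposited RPKM of 8 leukocyte and platelet integrin chains and of the summed immune and platelet markers in each library; points are libraries, lines are group means, and each axis starts at 0. Itgb2, Itgam and Itgax are higher in both Nf1-KO libraries, as is the immune marker sum (38.6 and 37.8 against 13.5 and 13.4 RPKM), while Itgal is lower.

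Itgam and Itgax lie side by side on chromosome 7 (128062640 to 128118491 and 128129547 to 128150657) and were higher together, so the 250 bases before each RefSeq start are shown. Both are on the plus strand of GRCm38.p6, at chr7:128062390-128062639 and chr7:128129300-128129549. Capitals mark GAGGAA or its reverse complement TTCCTC, the core that the myeloid factor PU.1 binds.
Itgam: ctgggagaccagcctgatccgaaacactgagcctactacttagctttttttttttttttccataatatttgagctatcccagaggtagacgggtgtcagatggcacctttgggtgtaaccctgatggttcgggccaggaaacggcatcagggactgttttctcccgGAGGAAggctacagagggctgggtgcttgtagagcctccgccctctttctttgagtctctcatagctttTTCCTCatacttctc
Itgax: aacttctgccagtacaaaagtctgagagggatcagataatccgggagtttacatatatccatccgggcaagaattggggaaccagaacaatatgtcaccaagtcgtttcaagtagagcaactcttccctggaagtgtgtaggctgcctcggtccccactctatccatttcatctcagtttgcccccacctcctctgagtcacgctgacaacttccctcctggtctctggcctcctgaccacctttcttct
Itgam holds 2 matches, beginning 84 and 15 bases before the start, and these letters are not in the Itgax window. Of all 32851 windows, 23.3% hold at least 1 match. Exons of Itgam share 3450 bases on the same strand with the annotated gene Gm49368, so its reads may be split.

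Among the laminin alpha chains, Lama5 fell and Lama2 and Lama4 did not pass the test. Lama2, the chain of the fibre's basement membrane, was 2.56 and 2.59 RPKM in Het and 2.93 and 2.74 RPKM in Nf1-KO. Its log2 fold change was 0.03 (95% interval -0.097 to 0.16, limma adjusted p 0.650), so a change of more than 0.16 in either direction lies outside the interval. Lama5 (chromosome 2, 180176373 to 180225859), a chain of mature vessels, was 2.83 and 2.97 RPKM in Het and 2.46 and 2.47 RPKM in Nf1-KO. The groups did not overlap, and its log2 fold change was -0.24 (SE 0.051, limma adjusted p 0.00926). That call was lost without Het replicate 2 (adjusted p 0.0512). Lama4, of capillaries, was 2.37 and 2.47 RPKM in Het and 2.51 and 2.23 RPKM in Nf1-KO, with overlap (log2 fold change -0.09, 95% interval -0.24 to 0.061).

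The order of the laminin alpha levels differed between the groups. Lama2 was 0.905 and 0.872 times Lama5 in Het and 1.19 and 1.11 times in Nf1-KO. In Het the means ran from Lama5 through Lama2 to Lama4, each further apart than the SD of either. In Nf1-KO they ran from Lama2 through Lama5 to Lama4, and the last 2 lay within the spread of Lama4 (2.465 ± 0.0071 against 2.37 ± 0.20 RPKM, SD, n = 2). Lama3, of epithelial basement membranes, was 0.14 and 0.20 RPKM in Het and 0.28 and 0.33 RPKM in Nf1-KO, below the filter, with a log2 fold change of 0.73 (SE 0.28, adjusted p 0.0338) in the authors' deposited table.

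Among the beta chains, Lamb2 fell slightly, Lamb3 rose from a low level and Lamb1 did not pass. Lamb2 (ENSMUSG00000052911.9, chromosome 9, 108479736 to 108490530), the most abundant laminin gene, was 24.62 and 25.41 RPKM in Het and 23.05 and 22.49 RPKM in Nf1-KO. The groups did not overlap, and the log2 fold change was -0.22 (SE 0.032, limma adjusted p 0.00178), and -0.13 (adjusted p 0.0145) with values as deposited. Lamb1, its counterpart along the fibre, was 2.4 and 2.58 RPKM in Het and 2.50 and 2.59 RPKM in Nf1-KO. Its log2 fold change of -0.04 (95% interval -0.18 to 0.088) turned to 0.023 with values as deposited. Lamb2 was 10.3 and 9.85 times Lamb1 in Het and 9.22 and 8.68 times in Nf1-KO. Lamb3, a chain of epithelial basement membranes, was 0.38 and 0.47 RPKM in Het and 0.84 and 0.74 RPKM in Nf1-KO. Both Nf1-KO libraries were higher, with a log2 fold change of 0.29 (SE 0.065, limma adjusted p 0.0107), and the call was lost without Het replicate 1 (adjusted p 0.0516). With a pseudocount of 0.1 it was 0.68.

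Lamc1 (ENSMUSG00000026478.14, chromosome 1, 153218922 to 153332786), the gamma chain of nearly all laminins of muscle and vessel, showed the largest fall among the laminin genes. It was 9.94 and 10.39 RPKM in Het and 7.87 and 7.78 RPKM in Nf1-KO. Both Nf1-KO libraries lay well below both Het libraries, at 0.770 times the Het mean. The log2 fold change was -0.42 (SE 0.040, limma adjusted p 2.72e-04), and it stayed between -0.47 and -0.34 over all alternatives. Since Lama2 did not fall with it, Lama2 was 0.257 and 0.249 times Lamc1 in Het and 0.372 and 0.352 times in Nf1-KO. Lama4 over Lamc1 was 0.238 in each Het library and 0.319 and 0.287 in Nf1-KO. Lamb2 over Lamc1 was 2.48 and 2.45 in Het and 2.93 and 2.89 in Nf1-KO. Lamc3 was between 0.07 and 0.11 RPKM.

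Among the basement membrane partners of the laminins were genes that fell and genes that rose. Of 23 listed genes 19 were tested, with 10 lower and 4 higher and a median log2 fold change of -0.18; over all genes tested, 25.4% were lower and 24.9% higher, with a median of 0.00041. Both collagen 4 chains that form the second network of the basement membrane fell. Col4a1 was 34.13 and 34.07 RPKM in Het and 20.34 and 19.44 RPKM in Nf1-KO (log2 fold change -0.84), and Col4a2 25.48 and 26.90 against 17.84 and 16.87 RPKM (-0.66). Col15a1 (-0.67) and Hspg2 (perlecan, -0.54) also fell, and Cd151, a membrane partner of laminin-binding integrins, fell by 0.28 on the log2 scale. Those that rose were Fbln1 (0.68), Ntn4 (0.56), whose product netrin-4 binds laminin, Egflam (0.43), whose product pikachurin binds dystroglycan, and the Lama5 receptor Bcam (0.37). Fbln1 reached the filter through Nf1-KO alone, so it was bound to differ between the groups. Dag1, which encodes dystroglycan, the other laminin receptor of the fibre, was 41.82 and 41.20 RPKM in Het and 43.38 and 41.72 RPKM in Nf1-KO and did not pass (-0.06, limma adjusted p 0.151).

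Genes of the complex that links integrin tails to actin moved in both directions. Of 25 listed genes 22 were tested, with 6 higher and 8 lower and a median of -0.07, near the shares over all genes tested (24.9% higher and 25.4% lower). Src, counted as lower, reached the filter through Het alone, so it was bound to differ between the groups. The talin genes, whose products bind the beta tail, parted. Tln1, the widespread form, was 17.36 and 16.98 RPKM in Het and 14.07 and 13.62 RPKM in Nf1-KO (log2 fold change -0.38). Tln2, the main form of striated muscle, was 12.92 and 12.85 RPKM in Het and 18.33 and 17.64 RPKM in Nf1-KO (0.36). Fermt2, which encodes kindlin-2, the partner of talin, was 72.25 and 72.38 RPKM in Het and 56.57 and 54.77 RPKM in Nf1-KO (-0.46). Flnc (filamin C, -0.56) and Vcl (vinculin, -0.52) also fell. Lims1 (PINCH, 0.44), Tns1 (tensin, 0.42) and Flna (filamin A, 0.19) rose, as did Itgb1bp2 (melusin, which binds the Itgb1 tail in muscle), from 70.98 and 76.90 to 89.36 and 89.09 RPKM (0.18). Ilk, the kinase-like partner of Lims1, had a log2 fold change of -0.0033 (limma adjusted p 0.951). Fermt1 is listed at 0 in all 4 libraries.

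Of 22 other ligands of integrins, a list chosen with earlier results known, 21 were tested, with 13 higher and 3 lower and a median of 0.25, against 24.9% higher, 25.4% lower and a median of 0.00041 over all genes tested. Spp1 (osteopontin, a ligand of Itgav with Itgb3 and of Itga9) was 0.41 and 0.31 RPKM in Het and 14.19 and 14.05 RPKM in Nf1-KO, and Postn (periostin) 1.32 and 1.07 against 9.33 and 9.82 RPKM. Spp1 and Tnc (tenascin C), both counted as higher, reached the filter through Nf1-KO alone, so they were bound to differ between the groups. Col1a1 and Col1a2, the collagen 1 chains, had log2 fold changes of 1.57 and 1.06. Those that fell were Col22a1 (-0.74), a collagen of the muscle-tendon junction, Tgfb2 (-0.58) and Vtn (vitronectin, -0.46). Vcam1, the ligand of the integrin with Itga4, was 0.99 and 0.91 RPKM in Het and 1.30 and 1.28 RPKM in Nf1-KO (log2 fold change 0.18, limma adjusted p 0.0363). Madcam1 is listed at 0 in all 4 libraries.

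Vessel cells also make Itga1, Itga6, Itgb1, Lama4, Lama5 and Lamc1, and their markers are given beside these genes. Of 10 endothelial markers 4 were higher and 2 lower. Over all genes tested, 24.9% were higher and 25.4% lower, the shares to set beside each count in this paragraph. The endothelial markers that were lower were Kdr (log2 fold change -0.25) and Tie1 (-0.12). As deposited, the endothelial markers summed to 113 and 114 RPKM in Het and 126 and 124 RPKM in Nf1-KO. With scaling their median log2 fold change was -0.01. The other sums in this paragraph are also of values as deposited. Cdh5, which defines endothelium, was 29.59 and 29.79 RPKM in Het and 31.93 and 31.52 RPKM in Nf1-KO (log2 fold change 0.00097). Of 7 smooth muscle and pericyte markers 6 were tested, with 2 higher and 1 lower (Tagln, log2 fold change -0.16). Their sum was 87.8 and 89.2 RPKM in Het and 111 and 112 RPKM in Nf1-KO. Most of that difference was Rgs5, at 52.47 and 54.20 RPKM in Het and 70.64 and 71.24 RPKM in Nf1-KO. None of the endothelial markers and none of the smooth muscle and pericyte markers was listed at 0 in all libraries. Schwann cell markers were higher in all 6 of 8 that were tested, with sums of 15.8 and 16.4 RPKM in Het and 36.5 and 35.0 RPKM in Nf1-KO. Fibroblast and tendon markers were higher in 5 and lower in 2 of 8 tested, with sums of 93.2 and 90.7 RPKM in Het and 123 RPKM in each Nf1-KO library. Those lower were Scx (log2 fold change -0.45) and Thbs4 (-1.06). Much of the difference in the sum was Col1a1, also in the ligand list, at 10.70 and 10.69 RPKM in Het and 35.85 and 36.07 RPKM in Nf1-KO. Of the satellite cell markers, 1 of 3 tested (Vcam1) was higher. The part of these cell types in the integrin and laminin values was not tested.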

How the data were processed

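RNA of 4 libraries of mouse tibialis anterior was analysed. The authors deposited 1 value per gene and library; per the submitters' processing notes the tools were STAR 2.4.2a and DESeq2 and the build mm9, with no roles given. The unit is not named; the values were read as RPKM that the authors computed. The authors' deposited table gives, per the file headers, a mean signal (counts divided by size factors), a log2 fold change, its error and test score, and p-values; its sign was read as Nf1-KO against Het (99.4% of 4392 called genes). Of rows marked as copies of a gene, the highest was used (no member has copies), and 33 rows named by a number were left out.

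Each library was divided by a TMM-type factor without weights (trimming 30% for ratios, 5% for abundance; factors 0.968, 0.967, 1.03 and 1.03). limma 3.58.1 in R 4.3.3 tested log2(RPKM + 1) with a variance trend and no covariate, over the 10690 genes that reached 0.5 RPKM in 2 libraries or more, with two-sided p-values adjusted by Benjamini-Hochberg (threshold 0.05). The fit was tested on simulated data. Depth was estimated as the number of reads that brought low values of transcripts under 400 bases closest to whole reads. It is an estimate, so no counting intervals are given. Positions and exon overlaps are from GENCODE M21 (GRCm38), where all 36 members were found; promoters are from RefSeq (GRCm38.p6).

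Members and lists were chosen with earlier results of these data known. Members are named, with library values where they passed the test or averaged at least 1 RPKM; 1 untested member is not reported here by itself. From each other list, the rule names up to 4 genes past the threshold in each direction and the 2 most abundant, and some further genes were chosen after their values were seen. Alternatives were another pseudocount, filters, scalings, variance model, replicate block, copy rule, threshold, and leaving out each library.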

Additional observations from a re-analysis of the deposited data

How the results depend on the processing

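Of 247 values of single members under 12 alternative fits, 230 kept their direction and their side of the threshold. The direction turned in 1: Lamb1, from -0.04 to 0.023 with values as deposited, a fit that differed from the main one in the scaling alone. The higher members numbered 4, but 1 with at least 1 RPKM in every library (fewer genes tested) and 8 with values as deposited, and 1 to 4 when each library was left out. The lower members ran from 6 to 9. The adhesion complex had 14 called genes, and 9 at an adjusted p under 0.01. The median of the integrin genes, 0.04, was -0.18 at 1 RPKM in every library, 0.14 as deposited and -0.12 to 0.068 when each library was left out. That of the laminin genes, -0.09, was -0.047 without a filter, -0.15 at 1 RPKM in every library, -0.022 as deposited and -0.19 to -0.069 when each library was left out. Libraries with the same replicate number did not deviate together (correlation -0.018), and with the replicate number as a block all 13 called members were called again. Depth limits the lowest members most, down to a mean of 10.2 normalized reads in the authors' deposited table, for which a few reads move the value.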
